A study of Mus musculus with 6 samples.

Results

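The genes described here carry glucose into the cell, break it down to pyruvate, convert pyruvate to lactate and carry lactate out. A list of 32 mouse gene names was matched to the gene name column of the deposited count table, which holds 54532 genes. The 32 names took 33 rows, because 2 rows carry the name Aldoa, and 32 rows had enough counts to be tested among 14883 genes. The rule itself uses the names alone, though the list was drawn up with earlier results of these data known.

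The study examined how macrophages act on CD8 T cells (CD8T cells, the cytotoxic lymphocytes) in atherosclerosis. Activated mouse CD8T cells, taken from the spleen and stimulated with anti-CD3/CD28 beads per the study's methods, were cultured for 24 hr in a 1 : 1 mixture with peritoneal macrophages that had received 10 ng/mL IFN-γ for 12 hr. The control group (n = 3) met macrophages without DB2313, and the DB2313 group (n = 3) met macrophages given 14 nM DB2313, a small molecule inhibitor of the myeloid transcription factor Spi1. The labels call the collected cells primary T cells and name the partners DC, read here as dendritic cells, where the methods name macrophages. No genotype is given for either cell. Nothing states whether the 3 samples of a group came from separate cultures or animals, so p-values measure the spread between these samples, which may be technical. The methods give no purity for the collected T cells.

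Glycolysis turns glucose into pyruvate in the cytosol and yields ATP without oxygen, and activated T cells and stimulated macrophages are both known for a high rate of it. Glucose carriers and hexokinases control entry, phosphofructokinase with its PFKFB activators is the main regulated step, and lactate dehydrogenase with the monocarboxylate carriers disposes of pyruvate as lactate. Pyruvate dehydrogenase kinases (Pdk) hold pyruvate back from the mitochondria, and the hypoxia-inducible factor Hif1a activates many of these genes.

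The libraries held 16611975 to 18596217 counts. The RNA carried defining genes of both T cells and macrophages: all 22 T cell markers rose in the DB2313 group (median log2 fold change 0.61, range 0.32 to 0.74), and all 22 macrophage markers fell (median -1.22, range -2.16 to -0.52). The summed T cell markers took 0.346 to 0.349% of the counts in the control libraries and 0.559 to 0.561% in the DB2313 libraries, while macrophage markers took 1.29 to 1.32% and 0.486 to 0.5004%. Lyz2 was the largest part of the macrophage sum, with 138332, 130458 and 128493 counts in the control libraries and 38833, 35962 and 37566 in the DB2313 libraries. None of the 22 markers of either list was at 0. Of 8 dendritic cell markers tested, 6 fell and 1 rose (median -0.48), and of 11 neutrophil markers, 10 fell and 1 rose (median -1.70). The 5 granule genes of myeloid progenitors rose (median 0.94), as did 4 of 7 B cell markers, of which 1 fell (median 0.46), and 1 of 3 erythroid markers (median 0.82). In such mixed RNA, fewer cells of a type and less RNA per cell cannot be told apart, and the part of these marker changes in the results that follow was not tested.

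The promoter sequences shown next belong to members at the entry, middle and exit of the pathway, and they display the letters searched for in all members. ACGTG and GCGTG are the core of the element bound by Hif1a, CACGTG is the E-box and contains ACGTG, and GAGGAA is the core bound by Spi1, the target of DB2313. Each motif was searched on both strands from 250 bases before to 50 bases after the RefSeq transcription starts (GRCm38.p6), and 31 of the 32 names matched a promoter, the exception being Slc2a3. Sequences run 5′ to 3′ in the direction of transcription. Capitals mark the matched motif, which for Hk2 (ACGTG) and Hk3 (GAGGAA) lies on the opposite strand and is printed as its reverse complement.
Slc2a1, chr4:119108697-119108725: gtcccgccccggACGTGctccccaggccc
Hk2, chr6:82774490-82774518: aatgagcacatcCACGTcactgtccgggg
Hk3, chr13:55021578-55021607: tcatgatggcccTTCCTCttaggctcctac
Pgk1, chrX:106186938-106186966: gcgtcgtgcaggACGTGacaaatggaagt
Ldha, chr7:46845745-46845773: ggcccagcctacACGTGggttcccgcacg
Slc16a3, chr11:120949028-120949056: caggcagcggtgACGTGcgcgggggacgt
Slc16a1, chr3:104638453-104638481: cggcgccgggtcACGTGgcgggaaggggg
Pdk1, chr2:71873134-71873162: ccgcctacatggGCGTGtctttaaccagg

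At least 1 copy of ACGTG or GCGTG stood in 27 of 31 member promoters (87.1%), against 46.7% of all 27025 genes with a promoter sequence and 65.9% of the 10548 such genes that were tested here. ACGTG alone was found in 18 of 31 (58.1%, against 28.8% of tested genes), GCGTG alone in 19 (61.3%, against 54.3%) and CACGTG in 6 (19.4%, against 11.5%). GAGGAA stood in 10 of 31 (32.3%, against 31.2%). A gene with several starts counted once if any start had the letters. In the stretches printed, ACGTG or GCGTG occurred in members that fell (Slc2a1, Hk2, Pgk1, Ldha, Slc16a3), in Pdk1, which rose, and in Slc16a1, which was not called. GAGGAA, printed for Hk3, which fell, also stood in Pfkfb3, Aldoa, Aldoc and Pgam1, which fell. It stood as well in Bpgm and Pdha1, which rose, and in Hk1, Pfkm and Pdk2, which were not called. A match is a run of letters and shows no binding. The Ldha and Slc16a3 stretches lie inside the span that the count table gives for the gene, the Slc2a1 stretch crosses its start, and the other 5 lie upstream.

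Most of the pathway was lower in the DB2313 group. By the quasi-likelihood test of edgeR, adjusted over all genes tested after Benjamini and Hochberg, 21 of 32 members fell (65.6%), against 24.6% of all 14883 genes, and 5 rose (15.6%), against 20.8%. In either direction 45.4% of all genes were called. The 5 members that rose were Pdk1, Pdha1, Bpgm, Eno2 and Ldhb, and the 6 that were not called were Slc2a3, Hk1, Pfkm, Eno3, Slc16a1 and Pdk2. All 5 risers had every DB2313 library above every control library, and 20 of the 21 that fell had every DB2313 library below, the exception being Gapdh. Called or not, 6 of 32 members had no overlap in the upward direction, Eno3 narrowly, and 20 of 32 in the downward direction. Libraries without overlap were found for 25.6% of all genes in the upward direction and 27.5% in the downward direction (53.1% in either). The median log2 fold change of the members was -0.20, and that of all genes tested was 0.02.

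Most changes were small. A log2 fold change within 0.5 of zero was measured for 25 of 32 members, and 3 members fell past a log2 fold change of -1 (Slc2a6, Hk3 and Gapdh), against 5.30% of all genes, while none rose past 1, against 1.37%. No member rose as far as the median T cell marker, and 1, Gapdh, lay below the median macrophage marker. The summed members made up 0.819% ± 0.011 of a control library and 0.736% ± 0.011 of a DB2313 library (SD, n = 3), with no overlap.

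The directions are relative to the scaling of the libraries, which here was the trimmed mean of M-values (TMM). When each library was scaled to its summed T cell markers, the median of all genes moved to -0.57, and 30 members were called lower and 0 higher, with a median of -0.79, while 77.6% of all genes were called lower and 1.12% higher. Scaled to library size alone, which put the median of all genes at 0.11, 18 members were lower and 8 higher, against 19.2% and 33.1% of all genes. Measured from the median of all genes, the members' median lay at -0.22 under each of these scalings. A change of scaling moves all genes by nearly the same amount, so this distance could hardly differ and is no separate support.

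**Figure D1:**
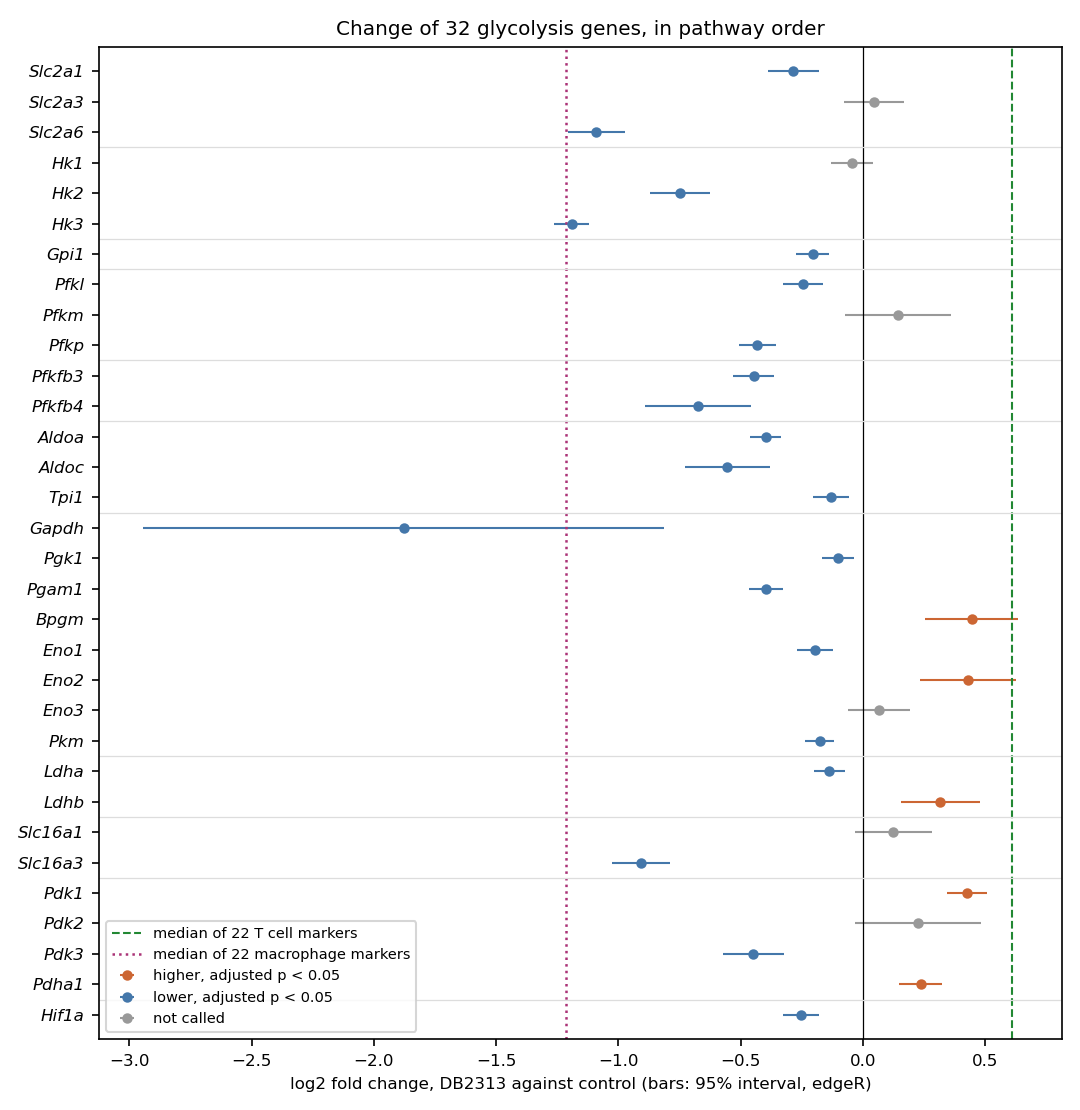
The plot gives the log2 fold change of each of 32 members in the DB2313 group against the control group (x axis, TMM scaling, n = 3 per group), in pathway order from glucose carriers to Hif1a (y axis). Points are edgeR estimates, bars 95% intervals and vertical lines the medians of 22 T cell and 22 macrophage markers. The 5 members called higher (Bpgm, Eno2, Ldhb, Pdk1, Pdha1) stay below the T cell median of 0.61 and turn negative when libraries are scaled to the T cell markers, and Slc2a6, Hk3 and the widely spread Gapdh lie furthest to the left.

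Among the glucose carriers, Slc2a6 fell by more than any other. Slc2a6 (GLUT6, a hexose carrier of intracellular membranes; chr2:27021363-27027998, minus strand) measured 86.2, 83.7 and 84.7 CPM (read counts scaled to a common library size with TMM factors) in the control libraries and 37.4, 39.7 and 42.5 CPM in the DB2313 libraries. The DB2313 libraries lay close together and far below the controls, with a log2 fold change of -1.09 ± 0.056 (SE; 2.13-fold lower, adjusted p = 1.01e-13). Slc2a1 (GLUT1), the basal carrier of the plasma membrane, whose promoter is among the sequences above, measured 82.5, 89.5 and 89.4 CPM in the controls and 68.6, 74.6 and 71.4 CPM with DB2313. The groups did not overlap, but the decrease was 1.22-fold (log2 fold change -0.28 ± 0.050, adjusted p = 5.29e-05). Slc2a3 (GLUT3), a high-affinity carrier, measured 46.9, 47.8 and 44.8 CPM and 47.0, 48.1 and 48.7 CPM, with overlapping groups and a log2 fold change of 0.04 (95% interval -0.08 to 0.17), which was negative (-0.55) under scaling to the T cell markers. Per kilobase of gene length, Slc2a6 took 45.8% ± 1.27 (SD) of the summed level of the 3 carriers in the controls and 31.5% ± 1.18 with DB2313. Slc2a1 went from 43.1% ± 1.46 to 51.7% ± 1.17 and became the leading carrier.

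Hexokinases phosphorylate glucose and trap it in the cell, and the 3 of them moved unequally. Hk3 (chr13:55005985-55021385, minus strand), the form known from myeloid cells, had the lowest adjusted p of all members. It measured 334, 339 and 347 CPM in the control libraries and 149, 147 and 151 CPM in the DB2313 libraries. The 2 groups stood well apart, each within a narrow range (log2 fold change -1.19 ± 0.035, 2.28-fold lower, adjusted p = 1.88e-18). Hk2, the inducible form that binds mitochondria, measured 82.5, 79.0 and 77.7 CPM and 43.1, 48.3 and 50.7 CPM. It fell 1.68-fold without overlap (log2 fold change -0.75 ± 0.059, adjusted p = 2.2e-10). Hk1, the constitutive form, measured 189, 178 and 183 CPM and 176, 189 and 168 CPM, with overlapping groups. Its log2 fold change of -0.05 ± 0.042 was not called (adjusted p = 0.396) and changed sign with library size (0.05) or upper quartile scaling (0.02). The macrophage markers that fell with Hk3 are given above.

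Summed per kilobase, the hexokinases measured 127 ± 1.34 CPM per kb in the controls and 69.2 ± 0.966 CPM per kb with DB2313 (SD, n = 3). Hk3 provided 72.6% ± 0.871 of this sum in the controls and 58.4% ± 1.36 with DB2313, and Hk1 16.9% ± 0.525 and 30.1% ± 1.54. Hk2 kept a similar share, 10.5% ± 0.392 and 11.5% ± 0.847, with overlapping libraries. Hk3 led in every library with the lengths of the count table. With the length of the principal transcript, Hk1 (45.7%) and Hk3 (45.8%) were level in the DB2313 group.

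Gpi1, which turns glucose 6-phosphate into fructose 6-phosphate, measured 568, 577 and 591 CPM in the controls and 495, 515 and 495 CPM with DB2313. It fell without overlap, with a log2 fold change of -0.21 ± 0.032 (adjusted p = 1.31e-05). The next step, phosphofructokinase, commits the sugar to glycolysis. Its platelet-type subunit Pfkp measured 226, 232 and 229 CPM in the controls and 165, 177 and 167 CPM with DB2313, and its liver-type subunit Pfkl 125, 126 and 127 CPM and 103, 109 and 107 CPM. Both fell without overlap, Pfkp by 0.43 (adjusted p = 8.54e-10) and Pfkl by 0.25 (adjusted p = 1.82e-05) on the log2 scale. The muscle-type subunit Pfkm measured 16.3, 16.1 and 19.5 CPM and 17.3, 18.2 and 21.8 CPM, overlapped between groups and was not called (log2 fold change 0.14 ± 0.10, adjusted p = 0.279, and -0.45 under T cell marker scaling). Part of the Pfkp transcript overlaps the gene Pitrm1, which had a log2 fold change of 0.02 ± 0.061.

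The bifunctional PFKFB enzymes make fructose 2,6-bisphosphate, the activator of phosphofructokinase, and both members fell. Pfkfb3 measured 189, 186 and 189.7 CPM in the controls and 138, 131 and 146 CPM with DB2313. Pfkfb4 was lower in level, 22.2, 23.6 and 20.2 CPM and 15.1, 11.5 and 14.8 CPM. Neither overlapped between groups, with log2 fold changes of -0.45 ± 0.040 (adjusted p = 2.15e-09) and -0.67 ± 0.10 (adjusted p = 1.07e-05).

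Aldolase splits the 6-carbon sugar, and its main form Aldoa was the leading member per kilobase in the controls (357 ± 6.71 CPM per kb). Aldoa measured 1024, 1029.5 and 1060.1 CPM in the controls and 788, 796 and 778 CPM with DB2313, with no overlap (log2 fold change -0.40 ± 0.030, adjusted p = 1.09e-10). The second row named Aldoa held at most 14 counts in a library and was not tested. Aldoc, a minor aldolase, measured 30.2, 26.6 and 26.2 CPM and 18.2, 19.7 and 18.64 CPM. It fell 1.47-fold without overlap (adjusted p = 7.52e-06). Tpi1, which interconverts the triose phosphates, went from 321, 338 and 341 CPM to 309, 308 and 296 CPM. Its decrease of 0.13 on the log2 scale (adjusted p = 0.00333) was not called with library size (adjusted p = 0.372) or upper quartile scaling (adjusted p = 0.123).

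Gapdh, which oxidises glyceraldehyde 3-phosphate and often serves as a reference gene, behaved unlike every other member. Its row (chr6:125161715-125166467, minus strand) held 249, 3092 and 1103 counts in the control libraries and 249, 818 and 191 counts in the DB2313 libraries, or 13.8, 179.9 and 67.4 CPM and 13.5, 47.9 and 10.4 CPM. The groups overlapped, and the spread within groups was the largest of 10917 tested genes with a mean over 5 CPM (pooled SD 1.56 on the log2 scale, against a median of 0.08). edgeR called it lower (log2 fold change -1.88 ± 0.51, adjusted p = 0.00441), but DESeq2 gave an adjusted p of 0.189, and without control replicate 2 the log2 fold change was -0.76 (adjusted p = 0.232). Across all alternatives its adjusted p ran from 4.69e-182 to 0.232. The smallest of these values is not read as a result, since the full groups overlapped.

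Of the 50-base windows of the principal Gapdh transcript, 82.5% also occur in other genes of the GENCODE M21 annotation, and 85 annotated pseudogenes share 100 or more windows with it. These copies held 874, 909 and 940 counts in the control libraries and 1243, 1303 and 1473 in the DB2313 libraries, 54.2% of the counts of Gapdh and copies together. The copy with most counts, Gm7336, rose from 295, 315 and 287 counts to 708, 726 and 886 (log2 fold change 1.31 ± 0.086, adjusted p = 8.54e-12). Without it the copies held 579, 594 and 653 counts in the controls and 535, 577 and 587 with DB2313, which overlapped. Of 11 copies tested, 1 other was called, Gm12070, which fell (log2 fold change -0.66 ± 0.19, adjusted p = 0.00765). With the copies added, the sums were 1123, 4001 and 2043 counts in the controls and 1492, 2121 and 1664 with DB2313. These sums overlapped, and their log2 fold change of -0.51 was not called (adjusted p = 0.0977). The Gapdh level is reported here as uncertain. Without Gapdh, 20 members fell.

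**Figure D2:**
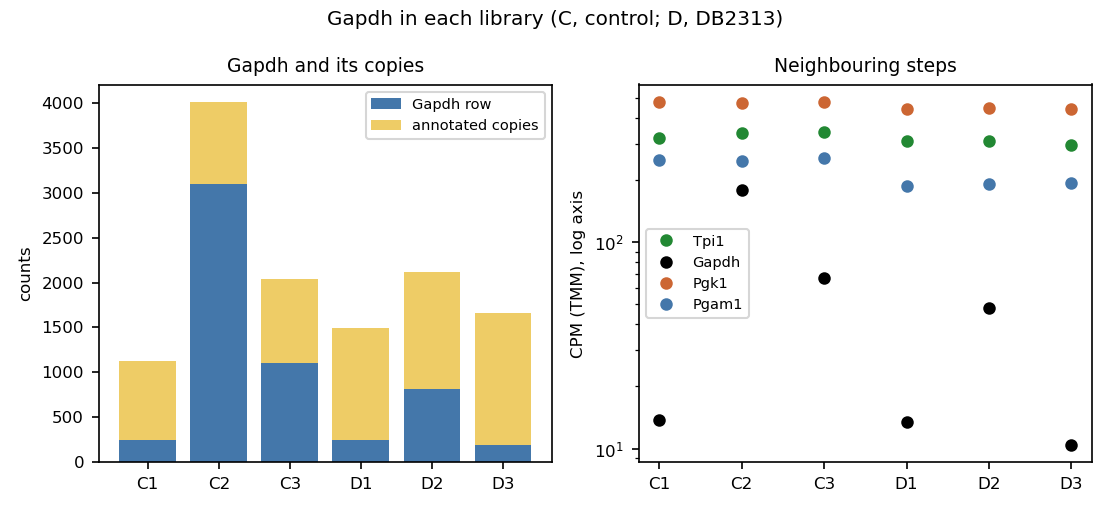
The left panel stacks the counts of the Gapdh row and of 85 annotated copies in each library (y axis, counts; C, control; D, DB2313), and the right panel gives the CPM of Gapdh and of 3 other glycolytic enzymes on a log axis. Gapdh ranges from 10.4 to 179.9 CPM with both groups mixed, while Tpi1, Pgk1 and Pgam1 form narrow bands, those of the DB2313 libraries slightly lower (for Tpi1 and Pgk1 a difference not called with library size or upper quartile scaling).

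In lower glycolysis, Pgk1, Pgam1, Eno1 and Pkm fell, Bpgm and Eno2 rose, and Eno3 was not called. Pgk1, which makes the first ATP of the pathway and whose promoter is shown above, measured 479, 474 and 477 CPM in the controls and 439.8, 448 and 444 CPM with DB2313. The libraries did not overlap, yet the change was -0.10 ± 0.031 on the log2 scale (adjusted p = 0.00943), and it was not called with library size (adjusted p = 0.84) or upper quartile scaling (adjusted p = 0.33). Pgam1, the phosphoglycerate mutase, fell further, from 250.0, 247 and 254 CPM to 187, 191 and 193 CPM (log2 fold change -0.40 ± 0.034, adjusted p = 1.12e-09). Bpgm, which makes 2,3-bisphosphoglycerate from the substrate of Pgk1, had 17.0, 15.8 and 18.8 CPM in the controls and 21.5, 23.6 and 25.1 CPM with DB2313. It rose 1.36-fold with no overlap (adjusted p = 0.000345), although scaling to the T cell markers gave a log2 fold change of -0.15.

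Enolase makes phosphoenolpyruvate. Its ubiquitous form Eno1 measured 966, 996 and 991 CPM and 832, 912 and 832 CPM, a decrease of 0.20 on the log2 scale (adjusted p = 6.17e-05). Eno2, the form known from neurons, measured 12.8, 14.1 and 13.4 CPM in the controls and 18.0, 18.1 and 18.1 CPM with DB2313. It rose 1.35-fold (adjusted p = 0.000633), with DB2313 libraries nearly identical, and had a log2 fold change of -0.16 under T cell marker scaling. Eno3, the form known from muscle, was not called, with 44.3, 43.3 and 40.7 CPM and 44.3, 45.4 and 44.6 CPM (log2 fold change 0.07 ± 0.061, adjusted p = 0.414, called higher with library size scaling and -0.53 with T cell marker scaling). Pkm, the pyruvate kinase of most tissues, measured 1601, 1636 and 1678 CPM and 1435, 1459 and 1451 CPM and fell by 0.18 on the log2 scale without overlap (adjusted p = 2.29e-05). Gene counts do not separate the M1 and M2 splice forms of Pkm. The principal transcripts of Eno1, Pgk1, Pgam1 and Pkm share 72.2%, 68.0%, 41.5% and 34.4% of their 50-base windows with other genes, so some of their reads could have gone to copies. Adding the annotated copies changed no call among these 4.

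At the lactate step the 2 subunits diverged. Ldha, the subunit that favours lactate formation, measured 886, 898 and 925 CPM in the controls and 815, 829 and 815 CPM with DB2313. The groups did not overlap (log2 fold change -0.14 ± 0.030, adjusted p = 0.00062), but the call was lost with library size (adjusted p = 0.21) and upper quartile scaling (adjusted p = 0.0555). Ldhb, the subunit of oxidative tissues, measured 21.1, 21.9 and 23.5 CPM and 27.4, 27.5 and 27.7 CPM. It rose 1.24-fold (log2 fold change 0.32 ± 0.077, adjusted p = 0.00173), and was -0.28 under T cell marker scaling. Ldhb stayed the minor subunit, at 4.92% ± 0.148 of the per-kilobase sum in the controls and 6.62% ± 0.0683 with DB2313.

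Of the 2 lactate carriers among the members, Slc16a3 fell and Slc16a1 was not called. Slc16a3 (MCT4; chr11:120948480-120960868, plus strand), the exporter known from highly glycolytic cells, measured 79.6, 75.9 and 85.03 CPM in the controls and 42.5, 41.2 and 44.4 CPM with DB2313. The highest DB2313 library was far below the lowest control (log2 fold change -0.91 ± 0.057, 1.88-fold lower, adjusted p = 4.14e-12). Slc16a1 (MCT1), a carrier that works in both directions, measured 39.0, 38.0 and 38.3 CPM and 39.8, 37.8 and 47.9 CPM. These groups overlapped, with DB2313 replicate 3 the highest library and DB2313 replicate 2 the lowest (log2 fold change 0.12 ± 0.076, adjusted p = 0.197). Slc16a1 was called higher with library size (0.22) and upper quartile scaling (0.19) and lower with T cell marker scaling (-0.47). Both promoters hold an ACGTG, as printed above. Per kilobase, Slc16a3 made up 63.4% ± 1.29 of the 2 carriers in the controls and 46.0% ± 2.17 with DB2313, and with the principal transcript lengths 68.0% and 51.1%.

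The kinases that block pyruvate dehydrogenase moved in opposite directions. Pdk1, the isoenzyme known as a Hif1a target, measured 153, 138 and 144 CPM in the controls and 193, 195 and 196 CPM with DB2313. It rose 1.34-fold without overlap (log2 fold change 0.42 ± 0.040, adjusted p = 4.6e-09), and was -0.17 under T cell marker scaling. Pdk3 measured 65.6, 63.1 and 62.5 CPM and 48.7, 48.8 and 42.7 CPM. It fell 1.36-fold (log2 fold change -0.45 ± 0.061, adjusted p = 1.62e-06). Pdk2 measured 11.9, 13.5 and 9.77 CPM and 13.1, 15.7 and 12.4 CPM, with overlap, and was not called (log2 fold change 0.23 ± 0.12, adjusted p = 0.149, called higher with library size scaling and -0.37 with T cell marker scaling). The per-kilobase sum of the 3 kinases was 47.2 ± 1.61 CPM per kb in the controls and 47.6 ± 1.64 CPM per kb with DB2313, with overlapping libraries. Within it, Pdk3 led in the controls (52.7% ± 0.447) and Pdk1 led with DB2313 (52.6% ± 2.18).

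Pdha1, the catalytic subunit that these kinases phosphorylate, rose from 90.7, 94.3 and 96.0 CPM to 107, 110.2 and 113 CPM (log2 fold change 0.23 ± 0.042, adjusted p = 7.35e-05; -0.36 under T cell marker scaling). The overlapping gene Map3k15 fell from 7.92 ± 0.74 to 2.57 ± 0.58 CPM. Hif1a measured 231, 227 and 220.0 CPM in the controls and 187, 189.8 and 193 CPM with DB2313. Its transcript fell 1.19-fold without overlap (log2 fold change -0.25 ± 0.035, adjusted p = 2.36e-06). The activity of Hif1a is set largely at the protein level, which was not measured in these files.

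**Figure D3:**
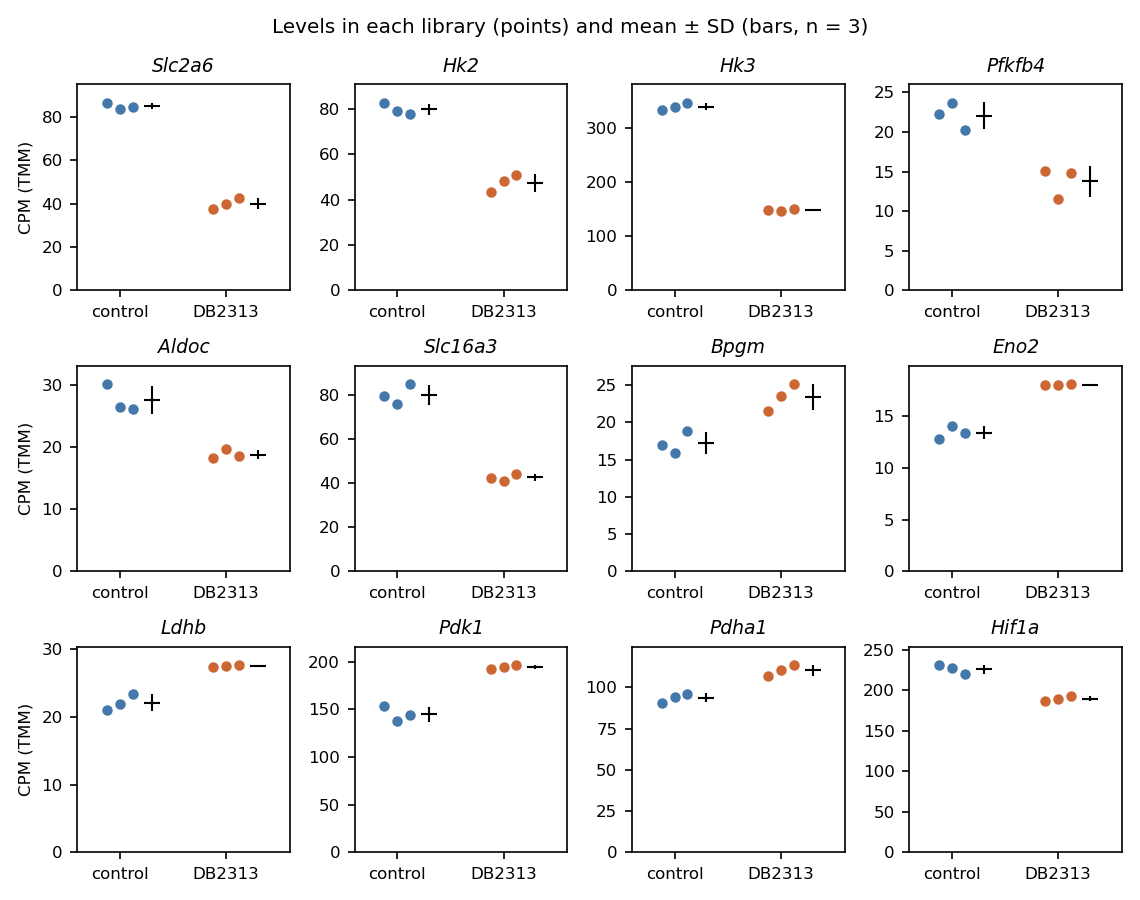
Each panel gives the TMM-scaled CPM of a member in every library (points, n = 3 per group; y axes start at 0), with the mean and SD beside them. Slc2a6, Hk2, Hk3, Pfkfb4, Aldoc, Slc16a3 and Hif1a lie lower and Bpgm, Eno2, Ldhb, Pdk1 and Pdha1 higher with DB2313, with no overlap in any of the 12 panels. Scaled to the T cell markers, the 5 that rose have log2 fold changes of -0.15 to -0.36.

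Members of the same step, and Bpgm with Pgam1, which act at different steps, were then compared within each library, since such a ratio does not depend on the scaling. Of 14 pairs, 11 did not overlap between groups. With 3 samples against 3, a two-sided exact permutation test cannot go below p = 0.1, the value of all 11, or 0.127 after Benjamini-Hochberg adjustment over the 14 pairs, so no pair could pass 0.05 in this test. The largest shift was at lactate export, where the log2 ratio of Slc16a3 to Slc16a1 counts was 1.06 ± 0.08 in the controls and 0.04 ± 0.13 with DB2313 (SD), a difference of -1.02 ± 0.09 (SE). The ratio of Pdk1 to Pdk3 rose from 1.19 ± 0.05 to 2.06 ± 0.12, and that of Bpgm to Pgam1 from -3.87 ± 0.11 to -3.03 ± 0.09. In both pairs every DB2313 library stood above every control.

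Hk2 lost ground to Hk1 and gained on Hk3, with differences in log2 ratio of -0.71 ± 0.09 and 0.44 ± 0.08. Eno2 gained on Eno1 by 0.63 ± 0.05 and Eno3 by 0.27 ± 0.06. Ldhb gained on Ldha by 0.46 ± 0.03, the difference with one of the smallest errors. Against its partners Pfkl and Pfkm, Pfkp had differences of -0.19 ± 0.02 and -0.57 ± 0.15, and Slc2a1 against Slc2a3 one of -0.33 ± 0.06. The groups overlapped for Pfkfb3 against Pfkfb4 (0.24 ± 0.12, p = 0.2 by the exact permutation test), Aldoc against Aldoa (-0.15 ± 0.08, exact permutation p = 0.2) and Pdk1 against Pdk2 (0.19 ± 0.19, exact permutation p = 0.5). Pairs that share a member are not independent of each other.

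**Figure D4:**
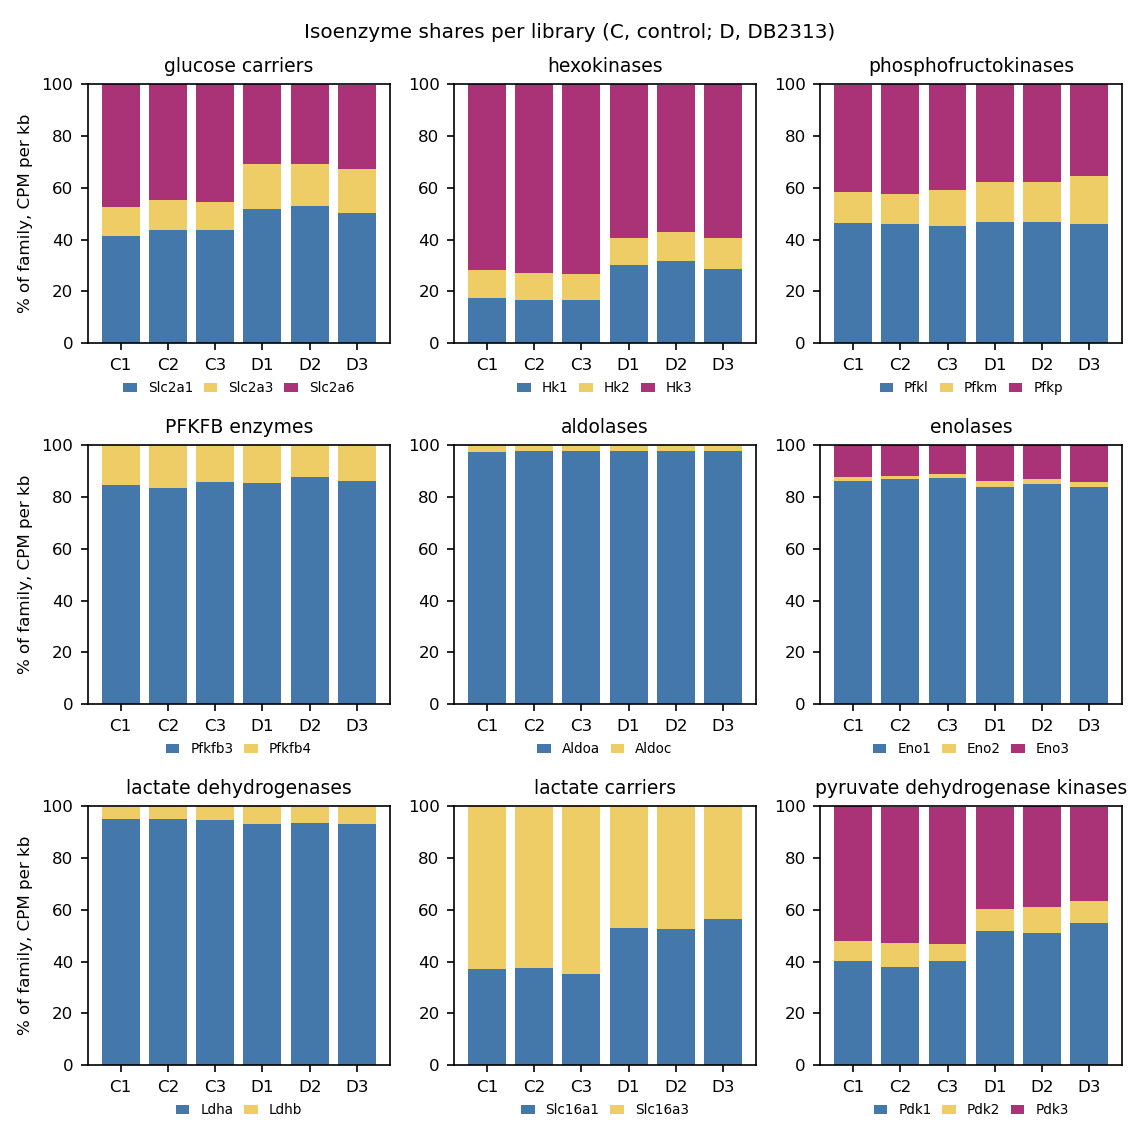
Stacked bars give the share of each isoenzyme in its step for each library (y axis, percent of the summed CPM per kilobase with the lengths of the count table; C, control; D, DB2313). The shares of Hk3, Slc2a6, Slc16a3 and Pdk3 are smaller in all 3 DB2313 libraries than in any control, and those of Hk1, Slc2a1, Slc16a1 and Pdk1 are larger.

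Genes next to the pathway were read from a separate list of 119 names, of which 94 were tested. Of these, 33 fell and 11 rose (35.1% and 11.7%, against 24.6% and 20.8% of all genes), with a median log2 fold change of -0.06. Glycogen and sugar phosphate enzymes had 8 of 17 lower and 1 higher (47.1% and 5.88%). Gyg, the primer of glycogen synthesis, measured 321, 338 and 342 CPM in the controls and 114, 112 and 102 CPM with DB2313, and Pygl, a glycogen phosphorylase, 204, 212 and 204 CPM and 79.1, 73.0 and 74.1 CPM. Both fell past the change of any member but Gapdh (log2 fold changes -1.61 ± 0.042 and -1.45 ± 0.041, adjusted p = 2.38e-19 and 1.03e-18). The mannose phosphate isomerase Mpi (-0.53 ± 0.087) fell as well.

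In the pentose phosphate pathway, which draws on glucose 6-phosphate to make NADPH and ribose, 4 of 8 genes fell and none rose. Of all genes tested, 24.6% fell and 20.8% rose. Pgd, its second dehydrogenase, went from 492 ± 10.1 to 274 ± 7.16 CPM (log2 fold change -0.85 ± 0.034, adjusted p = 9.2e-16). Taldo1, the transaldolase, and G6pdx, the entry enzyme, fell by 0.61 and 0.52 on the log2 scale. The mitochondrial enzyme Pck2, which makes phosphoenolpyruvate from oxaloacetate, rose from 41.3 ± 1.26 to 74.4 ± 1.04 CPM (1.803-fold, adjusted p = 5.32e-12), and was the only named gene of this list that rose. In the list of other glycolytic isoenzymes and related enzymes, 2 of 9 fell and 1 rose (22.2% and 11.1%). Among those that fell was the galactose mutarotase Galm (-0.99 ± 0.11). The genes called in this list are related enzymes, and no further isoenzyme of a glycolytic step was called.

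Regulators of the hypoxia factor gave 1 lower and 2 higher of 10 (10% and 20%, against 24.6% and 20.8% of all genes). The one that fell was Vhl, part of the ligase that marks Hif1a for degradation, with 75.9, 72.9 and 79.5 CPM in the controls and 45.4, 49.9 and 49.3 CPM with DB2313 (log2 fold change -0.66 ± 0.056, adjusted p = 9.35e-10). Of 19 hypoxia factor targets outside glycolysis, 6 fell and 3 rose (31.6% and 15.8%). The decreases were led by the haem oxygenase Hmox1 (-0.72 ± 0.047) and Ndrg1 (-0.61 ± 0.071). Pyruvate entry into mitochondria had 3 of 11 lower (27.3%, near the share of all genes) and 1 higher (9.09%). Glycolysis regulators had 6 of 13 lower and 2 higher (46.2% and 15.4%). Other lactate carriers and chaperones had 3 of 3 lower, with log2 fold changes from -0.59 to -0.12 and overlapping groups for 1 of them. None of 3 other hexose carriers was called, and 1 of 2 gluconeogenic genes, Pck2, rose. Scaled to the T cell markers, 85 of the 94 genes were lower and 1 higher, against the 77.6% and 1.12% of all genes at that scaling.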

How the data were processed

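Total RNA of 6 samples of T cells collected after coculture was sequenced (control, n = 3; DB2313, n = 3), and the authors deposited whole-number read counts per gene, with gene names, coordinates and lengths. The study's methods name LifeScope for alignment and counting, while the submitters' processing notes list CASAVA 1.8, HISAT2 2.0.5 and featureCounts 1.5.0-p3. The genome build, annotation release, strand setting and treatment of multi-mapped reads were not given in the sources used here. Of 54409 genes shared with GENCODE M21 (GRCm38), 53499 (98.3%) had the same coordinates. Libraries held 16611975 to 18596217 counts, and edgeR's common biological coefficient of variation was 4.67%.

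Counts were filtered (filterByExpr), scaled by TMM and tested in R 4.3.3 with edgeR 4.0.16 (glmQLFit, glmQLFTest) without covariates, with Benjamini-Hochberg adjustment over 14883 genes and a threshold of 0.05. The script was tested on simulated data. Levels of different genes were compared as CPM per kilobase. Isoform ratios were compared by a two-sided exact permutation test, with at least 10 counts required in every library. Alternatives were DESeq2 1.42.0, other scalings and filters, a fold threshold (glmTreat, 0.5), a replicate block, copies added and leaving out each library. All members were named. Values in every library were due for the main isoenzyme of each step and for members past 0.5 on the log2 scale, and were also given for the other members. Of neighbouring genes, those called, past 0.5 and with a mean of at least 10 CPM were named, at most 4 per list and direction, and 1 item is not reported here. The lists and rules, the members included, were chosen with earlier results of these data known.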

Additional observations from a re-analysis of the deposited data

How the results depend on the processing

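Apart from scaling to the T cell markers, 558 of 572 values of single genes under other settings had the sign and the call given above. All 126 values of isoform ratios, recomputed without a library, with the block or with copies added, had the same sign. For a ratio, the block gives the main difference again by construction, and added copies alter only pairs with a member that has copies. Agreement was therefore fixed in advance for the block, and for the other pairs when copies were added. Scaling to the T cell markers gave 0 members higher, 30 lower and 10 lower past a log2 fold change of -1, a median of -0.79, and 1 neighbouring gene higher and 85 lower. It turned the sign of Slc2a3 (-0.55), Pfkm (-0.45), Bpgm (-0.15), Eno2 (-0.16), Eno3 (-0.53), Ldhb (-0.28), Slc16a1 (-0.47), Pdk1 (-0.17), Pdk2 (-0.37) and Pdha1 (-0.36), as its construction shifts every gene down by the same amount. Library size scaling gave 8 members higher, a median of -0.107 and 24 neighbouring genes higher, and upper quartile scaling a median of -0.138 and 22 neighbouring genes higher, with Hk1 at 0.048 and 0.018. Tested against a log2 fold change of 0.5 (glmTreat), 0 members were higher and 5 lower. Leaving out 1 library at a time moved the median of the members from -0.233 (without DB2313 replicate 2) to -0.185.

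The replicate numbers showed no visible pairing: deviations from the group means of samples with the same number correlated at 0.02, -0.0003 and 0.02. These values cannot show whether samples with the same number were set up together. With the replicate number as a block, 21 members were lower and 5 higher, and all 44 single genes kept their call. The cause of the Gapdh changes with tool, copies and control replicate 2 was not tested. Reads shared between genes and copies limit Gapdh, Eno1, Pgk1, Pgam1 and Pkm. A smaller part of the principal transcript was shared with other genes for Ldhb (27.0%), Gpi1 (25.3%), Ldha and Pfkp (17.1% each) and Pdha1 (16.9%). Annotated copies held 0.304%, 0.177% and 0.189% of the counts of gene and copies together for Ldhb, Gpi1 and Ldha. With 3 samples a group, no isoform ratio can pass 0.05 in the exact permutation test, and every member tested had a mean over 10 CPM in both groups.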

Other observations

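The members differed in how tightly their libraries agreed. Pgk1 had the smallest spread within groups of any member (pooled SD 0.0109 on the log2 scale, ranked 10899 of 10917 genes from the widest), followed by Aldoa (0.0223), Pgam1 (0.0232) and Hk3 (0.0233), while the median gene had 0.0766. After Gapdh, the widest spreads were those of Pdk2 (0.208), Pfkfb4 (0.173), Pfkm (0.166), Slc16a1 (0.127) and Bpgm (0.118). Of these 5, Pfkfb4 and Bpgm were called. Low counts widen such a spread: Pgk1 held 7638 to 8650 counts in a library and Pdk2 160 to 268. Eno2, with 219 to 333 counts, nevertheless had a spread of 0.0484. The part of count depth in this ranking was not tested.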
